A study of Mus musculus with 9 samples.

Results

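Expression of 9 genes of myostatin, activin and bone morphogenetic protein (BMP) signalling, Mstn, Gdf11, Inhba, Bmp4, Bmp5, Fst, Fstl3, Acvr2b and Smad3, was examined by RNA sequencing in mouse gastrocnemius, a calf muscle. The genes were chosen by name, as the rows of the deposited count table whose gene symbol equals 1 of the 9, out of 56791 genes in all. The choice was made with earlier results of these data known. The series title gives the mice as female. The 9 libraries fall into 3 groups of 3: aged mice given GB, the ginkgolide B of the series title, at 12 mg per kg body weight, aged mice given saline vehicle, and young mice given saline vehicle. All 3 groups were dosed each day by oral gavage for 2 months. The vehicle sample titles hold 23M for aged and 3M for young mice, and the GB titles hold no age. Ginkgolide B is a diterpenoid compound from ginkgo leaves. The labels give no strain. They leave unsaid whether each library is a different animal, and the p-values below therefore rest on a spread between libraries that may be technical.

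Ligands of the TGF-beta family are secreted as precursors, cleaved by furin-type proteases, and bind a type II receptor, which activates a type I receptor. Myostatin, activins and GDF11 then act mainly through Smad2 and Smad3, and BMPs through Smad1, Smad5 and Smad9. In skeletal muscle, myostatin and activins restrain growth, and follistatin binds and neutralizes them. Loss of myostatin enlarges muscles in mice, and BMP signalling in mouse muscle counters wasting after loss of the nerve.

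Promoter sequence from RefSeq (build GRCm38.p6, 250 bases before and 50 bases after the gene start) was matched by symbol for 8 of the 9 genes, all but Fst. Sequences are shown for the closely related ligands Mstn and Gdf11, both lowest in aged vehicle muscle, and for Bmp5, the gene with the widest differences between groups. They lie at chr1:53061390-53061689 on the plus strand for Mstn, chr10:128891669-128891968 on the minus strand for Gdf11 and chr9:75775115-75775414 on the plus strand for Bmp5. Capitals mark CANNTG (the E-box letters that muscle basic helix-loop-helix factors can bind) and TATAAA (the TATA-box letters), searched on both strands.
Mstn: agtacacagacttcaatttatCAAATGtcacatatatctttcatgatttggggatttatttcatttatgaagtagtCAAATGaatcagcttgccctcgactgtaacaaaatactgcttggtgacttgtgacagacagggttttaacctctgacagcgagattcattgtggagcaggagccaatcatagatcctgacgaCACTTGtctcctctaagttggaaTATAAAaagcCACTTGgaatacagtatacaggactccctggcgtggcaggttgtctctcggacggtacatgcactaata
Gdf11: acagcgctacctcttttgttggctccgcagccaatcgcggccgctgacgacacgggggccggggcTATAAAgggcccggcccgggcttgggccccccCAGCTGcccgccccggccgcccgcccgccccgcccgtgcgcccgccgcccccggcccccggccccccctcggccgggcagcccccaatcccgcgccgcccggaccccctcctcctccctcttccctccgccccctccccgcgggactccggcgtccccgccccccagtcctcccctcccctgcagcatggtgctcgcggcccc
Bmp5: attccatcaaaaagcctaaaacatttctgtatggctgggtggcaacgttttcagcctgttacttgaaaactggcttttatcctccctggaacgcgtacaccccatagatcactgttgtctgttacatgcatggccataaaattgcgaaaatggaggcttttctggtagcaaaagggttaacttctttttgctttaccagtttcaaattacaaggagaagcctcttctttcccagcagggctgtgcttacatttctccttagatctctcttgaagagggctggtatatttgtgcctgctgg

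The Mstn promoter held 4 CANNTG matches and 1 TATAAA match. The Gdf11 promoter held 1 of each. The Bmp5 promoter held neither. Of all 32851 promoters of the same length, 72.3% held CANNTG and 13.6% held TATAAA. A match is a run of letters and was not tested as a binding site. Among the other promoters, CANNTG matched 3 times each in Fstl3 and Bmp4, and TATAAA matched once each in Inhba and Fstl3.

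Total counts were 39478427 to 44294097 in the GB libraries, 52068522 to 54095457 in the aged vehicle libraries and 51543383 to 61680520 in the young vehicle libraries. The GB libraries stood apart from the rest: genes with a count numbered 18678 to 19362 in them, between 22868 and 23045 in aged vehicle and between 22616 and 24185 in young vehicle muscle. Mitochondrially encoded genes held 24.3 to 26.1% of counts in GB muscle, between 13.9 and 15.3% in aged vehicle and between 8.60 and 10.2% in young vehicle muscle. The fold change between GB and aged vehicle followed gene length, with a median log2 value of 1.06 for genes of at most 500 bases and -0.67 for genes over 8000 bases. The labels name no batch. Since the treated libraries are all of the GB libraries, how they were prepared and how the mice were treated cannot be told apart. The 8 fast fibre markers of the tissue, such as Myh4 and Actn3, summed to 123745 to 149470 CPM with GB, between 76804 and 94232 CPM in aged vehicle and between 113189 and 119810 CPM in young vehicle muscle. Among markers of other cells, 4 of 5 adipocyte markers rose and 4 of 5 red blood cell markers fell with GB against aged vehicle. Levels are given as CPM (counts relative to library size, scaled with TMM factors that set the bulk of genes equal between libraries), and a gene was called when its adjusted p in edgeR's quasi-likelihood test was under 0.05.

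All 9 genes passed the filter on low counts. Between GB and aged vehicle, 3 of the 9 rose (Mstn, Gdf11 and Bmp4) and 3 fell (Bmp5, Acvr2b and Smad3). Over all 17534 genes tested, 53.2% were called in that comparison, 24.4% higher and 28.8% lower. Between aged and young vehicle, Bmp5 rose and Gdf11 fell, 2 of 9, where 8.60% of all genes were called, 4.32% higher and 4.28% lower. Between GB and young vehicle, a pair the series design does not list, Bmp4 rose and Fst, Acvr2b, Smad3 and Bmp5 fell, 5 of 9, where 53.6% of all genes were called, 24.7% higher and 29.0% lower. Groups did not overlap for 6 of the 9 genes between GB and aged vehicle (59.7% of all genes), 5 between aged and young vehicle (34.4%) and 5 between GB and young vehicle (60.7%). The 3 comparisons share libraries and are not independent of each other. The median log2 fold change of the 9 genes was -0.36 for GB against aged vehicle and -0.24 for aged against young vehicle, beside -0.05 and -0.0022 over all genes tested.

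**Figure D1:**
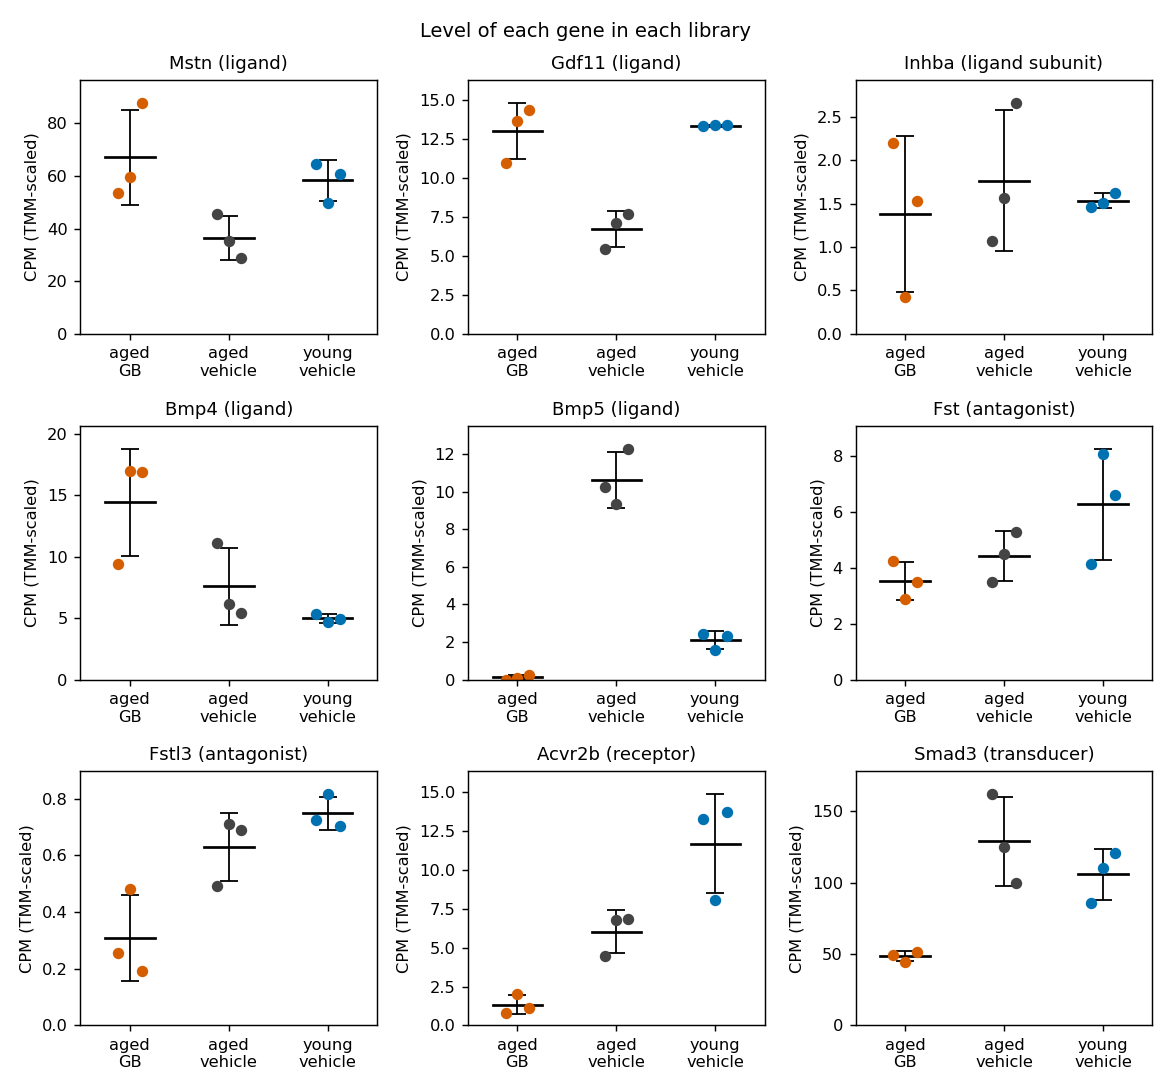
TMM-scaled CPM (vertical axes, each starting at 0) of the 9 genes in each library (points) of aged GB, aged vehicle and young vehicle muscle, with the mean (bar) and SD (whiskers) of 3 libraries. Bmp5 sits between 0 and 0.256 CPM with GB, 9.36 and 12.3 CPM in aged vehicle and 1.56 and 2.45 CPM in young vehicle libraries.

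Mstn encodes myostatin, the growth-restraining factor that muscle fibres secrete. It had 53.7, 59.6 and 87.8 CPM in the GB libraries, 45.5, 35.1 and 29.0 CPM in the aged vehicle libraries, and 64.7, 49.6 and 60.6 CPM in the young vehicle libraries. The aged vehicle libraries were the lowest 3 and overlapped neither other group, while the GB and young vehicle libraries overlapped. Mstn rose with GB, with a log2 fold change of 0.87 against aged vehicle (SE 0.21, edgeR adjusted p = 0.00453). Scaled by library totals, the value was 0.31 and was no longer called (adjusted p = 0.183). Aged against young vehicle gave -0.67 (SE 0.21, edgeR adjusted p = 0.0707), which missed the threshold. It was called lower under 6 of the 20 alternatives: with upper-quartile factors (adjusted p = 0.0416), DESeq2 (0.00963), limma-voom (0.0328) and the 6 vehicle libraries alone (0.0427), and without aged vehicle replicate 1 (0.0368) or GB replicate 3 (0.0270). Over all alternatives its highest adjusted p was 0.243. GB against young vehicle gave 0.20, with a 95% interval of -0.25 to 0.65, and its sign changed with library totals (-0.36). The fast fibre marker sums, lowest in aged vehicle and highest with GB, moved with Mstn, as did slow fibre and Schwann cell markers, whose values stand beside Gdf11. Of the fast fibre markers, 5 of 8 rose and 1 fell with GB against aged vehicle, and 3 fell and 0 rose in aged against young vehicle. Between GB and young vehicle, 5 rose and 2 fell. The marker sums were not corrected for the gene length trend of the GB libraries. The part of all these markers in the Mstn values was not tested. In whole muscle, fewer cells of a type and less RNA per cell cannot be told apart.

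Gdf11 encodes growth differentiation factor 11, the closest relative of myostatin. It had 10.9, 13.7 and 14.4 CPM in the GB libraries, 5.44, 7.11 and 7.65 CPM in the aged vehicle libraries, and 13.3, 13.4 and 13.4 CPM in the young vehicle libraries. The aged vehicle libraries lay below all others, and the GB libraries spanned the young vehicle ones. Gdf11 fell in aged against young vehicle (log2 fold change -0.99, SE 0.16, edgeR adjusted p = 0.00234), a call that held in all 20 alternatives. It rose with GB against aged vehicle (log2 fold change 0.95, SE 0.16, edgeR adjusted p = 0.000273). With library totals this value was 0.37 and not called (adjusted p = 0.0721). GB against young vehicle gave -0.04 (95% interval -0.38 to 0.30), and Gdf11 was called lower there with library totals (-0.60, adjusted p = 0.00684). Markers of slow fibres and of Schwann cells, the glia of the nerve, moved with Gdf11. The 7 slow fibre markers summed to 1218 to 1533 CPM in GB muscle, 106 to 154 CPM in aged vehicle muscle and 1516 to 2106 CPM in young vehicle muscle. All 7 fell in aged against young vehicle (median log2 fold change -4.98) and all 7 rose with GB against aged vehicle (median 5.19). Between GB and young vehicle, 3 rose and 3 fell (median 0.45). There Myh7 averaged 35.9 CPM with GB against 432 CPM, and Myl2 455 against 216 CPM. The 6 Schwann cell markers summed to 156 to 258 CPM in GB muscle, 109 to 121 CPM in aged vehicle muscle and 221 to 423 CPM in young vehicle muscle. Of these 6, 3 fell and 0 rose in aged against young vehicle, and 4 rose and 0 fell with GB against aged vehicle. Between GB and young vehicle, 1 rose and 0 fell (median log2 fold change -0.35). No marker of these lists was at 0 in all libraries of a group, and their part in the Gdf11 values was not tested.

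Per kilobase of gene length, Mstn stood well above Gdf11 within every library. The ratio of their CPM per kb was between 6.55 and 9.18 in GB, between 5.68 and 12.6 in aged vehicle and between 5.58 and 7.31 in young vehicle muscle, so the 3 ranges overlapped. This ratio and those below were chosen after the values were seen and carry no test. They were not corrected for the gene length trend of the GB libraries. Dividing by gene length does not remove it, since each length is the same in every group.

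Inhba encodes the beta A subunit that pairs into activin A. It had 2.19, 0.420 and 1.54 CPM in the GB libraries, 1.07, 1.56 and 2.66 CPM in the aged vehicle libraries, and 1.46, 1.51 and 1.63 CPM in the young vehicle libraries. The young vehicle libraries were close together and the other groups spread widely around them, so that all 3 overlapped. Inhba was not called in any comparison. The 95% intervals of its log2 fold change ran from -1.45 to 0.74 for GB against aged vehicle and from -0.87 to 1.28 for aged against young vehicle. Its sign in both changed when single libraries were left out. Its partner gene Inhbb, of activin B, was not called either, with log2 values of -0.38 (SE 0.46) and 0.51 (SE 0.45) in the same order, and both signs changed without aged vehicle replicate 1.

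Bmp4 encodes a BMP ligand. It had 9.38, 17.0 and 16.9 CPM in the GB libraries, 11.2, 6.19 and 5.40 CPM in the aged vehicle libraries, and 5.38, 4.67 and 4.97 CPM in the young vehicle libraries. GB replicate 1 and aged vehicle replicate 1 crossed, while every GB library stood above every young vehicle library. Bmp4 rose with GB against aged vehicle (log2 fold change 0.93, SE 0.28, edgeR adjusted p = 0.0156). That call was lost without GB replicate 2 (0.0691) or 3 (0.0636), without aged vehicle replicate 2 (0.0696) or 3 (0.0674), with an offset for gene length (0.53, adjusted p = 0.173) and with library totals (0.37, adjusted p = 0.248). Against young vehicle, Bmp4 rose with GB by 1.53 on the log2 scale (SE 0.29, edgeR adjusted p = 0.000785) in all 20 alternatives. Aged against young vehicle gave 0.60 (SE 0.28, edgeR adjusted p = 0.241) and was not called.

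Bmp5 encodes another BMP ligand and had the widest differences of the 9 genes. It had 0, 3 and 8 counts in the GB libraries, which are 0, 0.0900 and 0.256 CPM. It had 10.3, 9.36 and 12.3 CPM in the aged vehicle libraries, and 2.45, 1.56 and 2.32 CPM in the young vehicle libraries. The 3 groups did not overlap: GB was lowest, young vehicle between and aged vehicle highest. A count of 0 in GB replicate 1 allows up to 0.0954 CPM (3 counts, counting error only).

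Bmp5 rose in aged against young vehicle (log2 fold change 2.33, SE 0.35, edgeR adjusted p = 0.00156). It fell with GB, at -6.51 on the log2 scale against aged vehicle (SE 0.50, edgeR adjusted p = 3.52e-07) and at -4.18 against young vehicle (SE 0.51, edgeR adjusted p = 1.97e-05). These 3 calls held in all 20 alternatives. The size of the fall with GB rests on 11 counts in 3 libraries, and its log2 value ranged from -7.78 to -5.95 against aged vehicle over the alternatives. Per kilobase, the ratio of Bmp5 to Bmp4 was between 0 and 0.00846 in GB, between 0.514 and 1.27 in aged vehicle and between 0.187 and 0.261 in young vehicle muscle, with no overlap between groups.

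Markers of vessels moved with Bmp5 in the comparisons of the series design. The 7 endothelial markers summed to 274 to 322 CPM with GB, between 537 and 577 CPM in aged vehicle and between 360 and 377 CPM in young vehicle muscle. Of these 7, 1 rose and 4 fell with GB against aged vehicle (median log2 fold change -0.77). In aged against young vehicle, 3 rose and 0 fell (median 0.63). The 7 smooth muscle and pericyte markers summed to 534 to 598, 956 to 1012 and 628 to 663 CPM in the same order of groups. Of these, 0 rose and 5 fell with GB against aged vehicle (median -0.61), and 3 rose and 0 fell in aged against young vehicle (median 0.835). No marker of either list was at 0 in all libraries of a group. Between GB and young vehicle, where Bmp5 also fell, 1 endothelial marker rose and 3 fell (median log2 fold change -0.11), and of the smooth muscle and pericyte list 3 rose and 2 fell (median 0.09). Red blood cell markers also moved with Bmp5 in the comparisons of the series design. With GB against aged vehicle, 0 of the 5 rose and 4 fell (median -1.155). In aged against young vehicle, 4 rose and 0 fell (median 1.48), and between GB and young vehicle 1 rose and 2 fell (median -0.34). The part of vessel and red blood cells in the Bmp5 values was not tested.

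**Figure D2:**
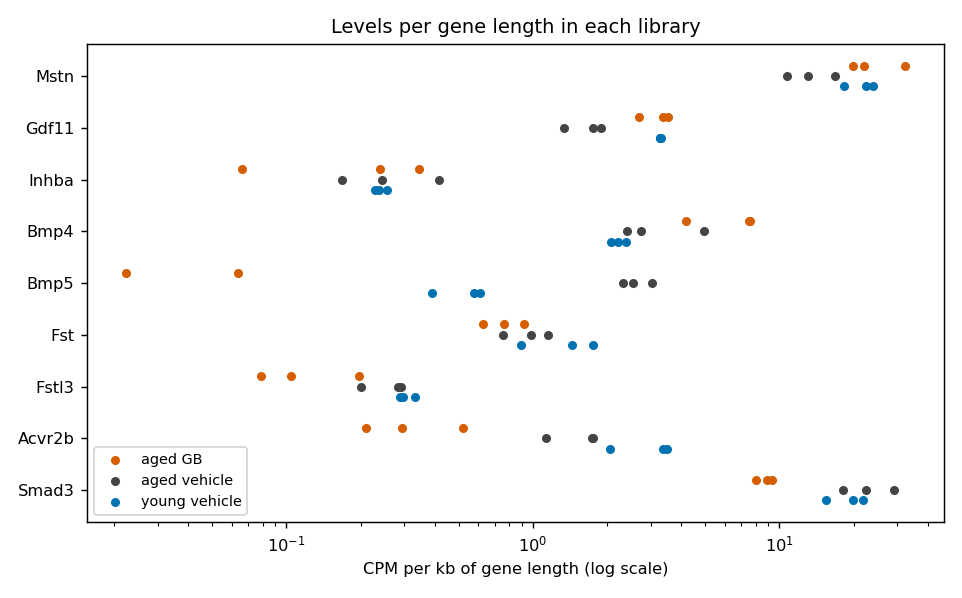
CPM per kb of gene length (horizontal log axis) of the 9 genes in each library of aged GB, aged vehicle and young vehicle muscle, 1 point per library. Mstn and Smad3 lie highest in all 3 groups, and Bmp5 with GB lies lowest. The GB library with 0 counts of Bmp5 cannot be drawn on a log axis.

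Fst encodes follistatin, a secreted protein that binds activins, myostatin and GDF11. It had 4.23, 2.88 and 3.49 CPM in the GB libraries, 3.48, 4.50 and 5.29 CPM in the aged vehicle libraries, and 4.12, 8.07 and 6.62 CPM in the young vehicle libraries. Neighbouring groups overlapped, and young vehicle replicate 1 lay within the range of both aged groups. Fst was not called between GB and aged vehicle (log2 fold change -0.33, 95% interval -0.91 to 0.26, edgeR adjusted p = 0.334). It was called lower there with library totals (-0.90, adjusted p = 0.0144). Aged against young vehicle gave -0.50 (95% interval -1.07 to 0.07, edgeR adjusted p = 0.289). Against young vehicle, Fst fell with GB (log2 fold change -0.83, SE 0.27, edgeR adjusted p = 0.0205), a call that was lost without GB replicate 2 (0.0761), without young vehicle replicate 2 (0.105) or 3 (0.0605), with limma-voom (0.0581) and with the length offset (0.0506).

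The ratio of Mstn to Fst, per kilobase, was between 21.5 and 42.7 in GB, between 9.29 and 22.2 in aged vehicle and between 10.4 and 26.6 in young vehicle muscle. The lowest GB library overlapped the highest of each vehicle group. Mstn, at 2705 bases, is shorter than Fst at 4589, and the part of the length trend in this ratio was not tested.

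Fstl3 encodes follistatin-like 3, a related antagonist of activins and myostatin. It was scarce, with 0.254, 0.480 and 0.192 CPM (6 to 16 counts) in the GB libraries, 0.493, 0.711 and 0.690 CPM in the aged vehicle libraries, and 0.724, 0.815 and 0.705 CPM in the young vehicle libraries. The GB libraries lay below all others, and the vehicle groups overlapped. Fstl3 was not called between GB and aged vehicle (log2 fold change -1.02, 95% interval -2.12 to 0.08, edgeR adjusted p = 0.109) or between aged and young vehicle (-0.24, 95% interval -1.27 to 0.78). It was called lower with GB against aged vehicle with the length offset (adjusted p = 0.0444), with library totals (0.0153) and without GB replicate 2 (0.0325). GB against young vehicle gave -1.27 (edgeR adjusted p = 0.0509), and over the alternatives that p lay between 0.00713 and 0.124.

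Acvr2b encodes activin receptor type 2B, the type II receptor that myostatin binds with high affinity. It had 0.826, 2.04 and 1.15 CPM in the GB libraries, 4.45, 6.81 and 6.87 CPM in the aged vehicle libraries, and 13.3, 8.05 and 13.8 CPM in the young vehicle libraries. The groups did not overlap, with GB lowest and young vehicle highest. Acvr2b fell with GB, at -2.17 on the log2 scale against aged vehicle (SE 0.33, edgeR adjusted p = 0.000139) and at -3.12 against young vehicle (SE 0.33, edgeR adjusted p = 6.86e-06), and both calls held in all 20 alternatives. Aged against young vehicle gave -0.95 (SE 0.29, edgeR adjusted p = 0.0659), which was not called. DESeq2 (adjusted p = 0.0143), limma-voom (0.0253), the fit of the 6 vehicle libraries alone (0.0420) and the fits without GB replicate 1 (0.0417) or 2 (0.0440) called it. Its antisense neighbour Gm47320 had 138 counts over the GB libraries, 139 over the aged vehicle and 239 over the young vehicle libraries, beside 130, 1102 and 2319 for Acvr2b. The use of strand in counting is not given in the sources used here, so reads of the overlapping stretch cannot be told apart.

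The related receptor Acvr2a, of activins and BMPs, fell with GB to 11.0 ± 1.90 CPM, against 25.6 ± 2.32 CPM in aged vehicle libraries (SD, n = 3 each; log2 fold change -1.22, edgeR adjusted p = 9.03e-06). The ratio of Acvr2b to Acvr2a, per kilobase, was between 0.125 and 0.287 in GB, between 0.228 and 0.409 in aged vehicle and between 0.423 and 0.627 in young vehicle muscle. The vehicle groups did not overlap in this ratio, and 1 GB library lay within the aged vehicle range.

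Smad3 encodes the transcription factor that carries myostatin, activin and TGF-beta signals to the nucleus. It had 49.3, 44.5 and 51.7 CPM in the GB libraries, 162, 125 and 100.02 CPM in the aged vehicle libraries, and 85.9, 110 and 121 CPM in the young vehicle libraries. The GB libraries were close together and below all others, and the vehicle groups overlapped. Smad3 fell with GB, at -1.41 on the log2 scale against aged vehicle (SE 0.17, edgeR adjusted p = 3.04e-05) and at -1.13 against young vehicle (SE 0.17, edgeR adjusted p = 0.000171), in all 20 alternatives. Aged against young vehicle gave 0.29 (95% interval -0.08 to 0.65, edgeR adjusted p = 0.355). Smad2, the other transducer of these ligands, fell with GB to 8.92 ± 0.342 CPM, against 15.5 ± 0.989 CPM in aged vehicle libraries (SD, n = 3 each; log2 fold change -0.79, edgeR adjusted p = 7.95e-05). With the length offset, Smad2 was no longer called (adjusted p = 0.0712). Per kilobase, Smad3 over Smad2 was between 8.05 and 9.01 in GB, between 10.2 and 15.7 in aged vehicle and between 8.74 and 13.1 in young vehicle muscle.

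**Figure D3:**
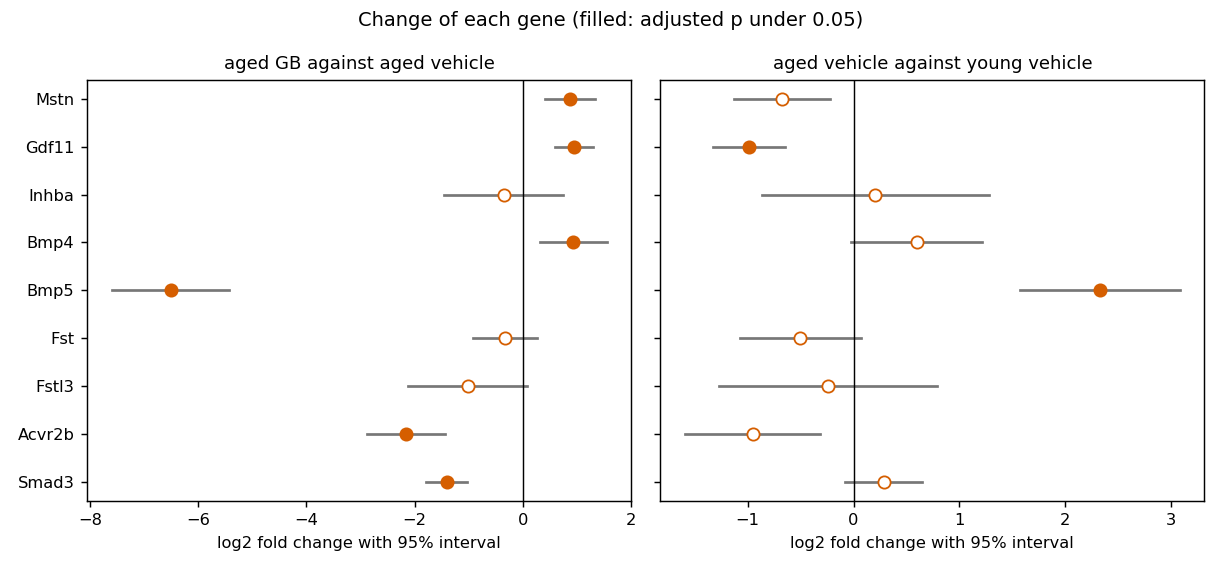
Log2 fold change (horizontal axes, which differ in range) of the 9 genes for aged GB against aged vehicle and for aged vehicle against young vehicle, with 95% intervals (lines). Filled points have an adjusted p under 0.05: 6 genes for GB against aged vehicle and 2, Bmp5 and Gdf11, for aged against young vehicle.

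Ordered by CPM per kb, Mstn was the highest of the 9 genes in GB muscle at 24.8 ± 6.74 (SD, n = 3), followed by Smad3 at 8.75 ± 0.655, Bmp4 at 6.42 ± 1.95 and Gdf11 at 3.20 ± 0.446. Then came Fst at 0.770 ± 0.147, Acvr2b at 0.341 ± 0.160, Inhba at 0.216 ± 0.140, Fstl3 at 0.126 ± 0.0620 and Bmp5 at 0.0287 ± 0.0323. Of neighbours in this order, Acvr2b and Inhba, and Inhba and Fstl3, overlapped between libraries. In aged vehicle muscle, Smad3 stood first at 23.3 ± 5.62 CPM per kb, above Mstn at 13.5 ± 3.09 without overlap. Bmp5, at 2.64 ± 0.372 CPM per kb, came next after Bmp4 at 3.37 ± 1.39 and overlapped it. In young vehicle muscle, Mstn at 21.6 ± 2.88 CPM per kb and Smad3 at 19.1 ± 3.26 overlapped, and Acvr2b, at 2.98 ± 0.806, overlapped both Gdf11 at 3.28 ± 0.01005 and Bmp4 at 2.23 ± 0.159. The order within the GB libraries was not corrected for the length trend.

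Scaling bears on each value that involves the GB libraries. TMM factors and library totals differ by a shift that moves the median of all genes for GB against aged vehicle to a log2 value of -0.62 with library totals, against -0.05 with TMM. Called genes split into 4281 higher and 5045 lower with TMM and 2030 higher and 8421 lower with library totals. For GB against young vehicle the split was 4323 higher and 5083 lower with TMM, and 2117 higher and 8530 lower with library totals. Relative to the shift of all genes, Mstn at 0.31 and Gdf11 at 0.37 lay above the median under library totals and Smad3 at -1.97 and Acvr2b at -2.75 lay below it. Such a shift moves all genes by about the same amount. These positions therefore follow from the TMM values and are no separate check of them.

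**Figure D4:**
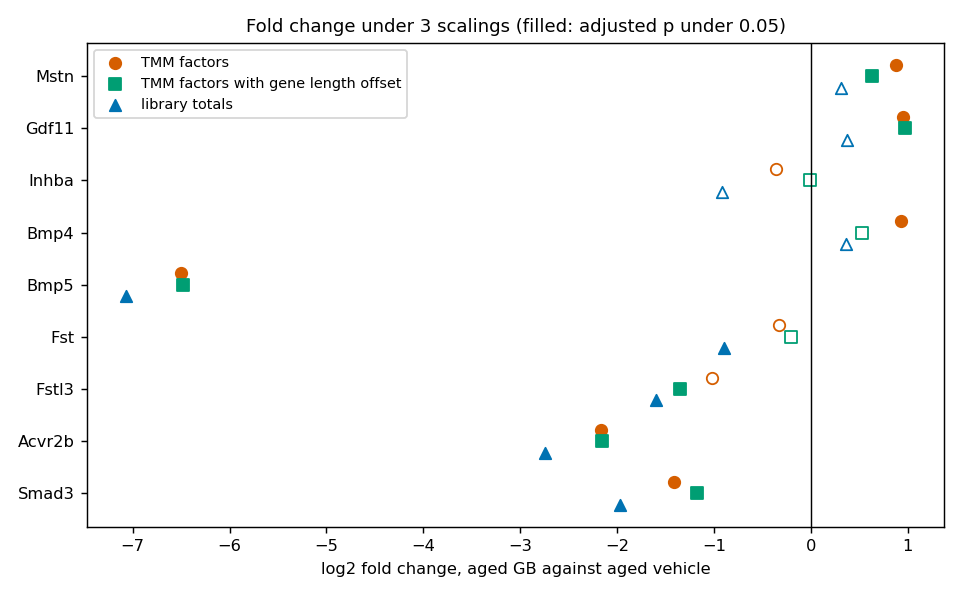
Log2 fold change (horizontal axis) of the 9 genes for aged GB against aged vehicle with TMM factors (circles), TMM factors with a gene length offset (squares) and library totals (triangles); filled symbols have an adjusted p under 0.05. Bmp5, Acvr2b and Smad3 are below 0 and filled under all 3 scalings, and Mstn and Gdf11 are filled under the first and second only.

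Beyond the 9 genes, 125 further genes of the pathway and its outputs were grouped into 7 lists, of which 107 were tested. With GB against aged vehicle, 14 rose and 45 fell, 55.1% of those tested, near the 53.2% of all genes. The same count was 2 higher and 63 lower with library totals, and 16 higher and 33 lower with the length offset. In aged against young vehicle, 10 rose and 10 fell, 18.7% of those tested, beside 8.60% of all genes. The lists were chosen with earlier results of these data known, so the difference between these shares is not a test of the pathway. The median log2 fold change over the 107 genes was -0.42 for GB against aged vehicle and 0.06 for aged against young vehicle. For GB against aged vehicle the medians by list were -0.45 for other ligands, -0.68 for propeptide processing and latency, 0.21 for extracellular antagonists, -0.38 for receptors and co-receptors, -0.75 for Smads and Smad regulators, -0.12 for BMP and Smad target genes and -0.19 for muscle growth outputs, beside -0.05 for all genes. The antagonists thus had a median above 0 although more of them fell than rose, and the target genes one below 0 although only rises were called. For aged against young vehicle the list medians lay between -0.19 and 0.09, other than that of the target genes at 0.55.

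Of 18 other ligands tested, 2 rose and 6 fell with GB against aged vehicle, and 3 rose and 0 fell in aged against young vehicle. Bmp6, a BMP ligand, averaged 14.0 ± 2.20 CPM with GB, 35.3 ± 2.92 CPM in aged vehicle and 17.6 ± 0.971 CPM in young vehicle libraries (SD, n = 3 each). It rose in aged against young vehicle by 1.00 on the log2 scale (SE 0.12, edgeR adjusted p = 0.000462) and fell with GB against aged vehicle (log2 fold change -1.33, SE 0.13, edgeR adjusted p = 2.13e-06), in all 20 alternatives. The level of Bmp6 was thus highest in aged vehicle, as that of Bmp5 was. Bmp4 over Bmp6, per kilobase, was between 0.986 and 2.41 in GB, between 0.262 and 0.511 in aged vehicle and between 0.447 and 0.567 in young vehicle muscle, and the GB libraries stood above all others. Bmp4, at 2248 bases, is shorter than Bmp6 at 3900, and this ratio was not corrected for the length trend of the GB libraries. Tgfb2, which encodes TGF-beta 2, fell with GB against aged vehicle (log2 fold change -1.04, SE 0.14, edgeR adjusted p = 3.90e-05).

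Of 12 genes of propeptide processing and latency tested, 1 rose and 8 fell with GB against aged vehicle, and 1 rose and 3 fell with the length offset. Furin, the protease that cleaves TGF-beta family precursors, fell with GB to 22.7 ± 1.33 CPM, against 48.6 ± 6.15 CPM in aged vehicle libraries (SD, n = 3 each; log2 fold change -1.10, edgeR adjusted p = 3.59e-06). Fbn1, the long fibrillin gene whose protein holds latent TGF-beta complexes in the matrix, fell (log2 fold change -1.88, SE 0.23, edgeR adjusted p = 5.46e-05). In aged against young vehicle, 0 rose and 2 fell, Furin (-0.44, adjusted p = 0.0256) and Pcsk6 (-0.42, adjusted p = 0.0476), and both calls were lost in some of the alternatives.

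Of 15 extracellular antagonists tested, 2 rose and 6 fell with GB against aged vehicle, and 0 rose and 2 fell in aged against young vehicle. Twsg1, which encodes a BMP-binding protein, fell with GB against aged vehicle (log2 fold change -1.25, SE 0.13, edgeR adjusted p = 3.76e-06). Fmod, which encodes a matrix proteoglycan that binds TGF-beta and is also 1 of the 6 tendon markers, fell with GB (log2 fold change -2.23, SE 0.32, edgeR adjusted p = 0.000485). The 6 tendon markers summed to 65.6 to 110 CPM with GB, between 196 and 294 CPM in aged vehicle and between 308 and 547 CPM in young vehicle muscle, and 1 rose and 5 fell with GB against aged vehicle. Their part in the Fmod values was not tested.

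Of 17 receptors and co-receptors tested, 3 rose and 8 fell with GB against aged vehicle, and 2 rose and 2 fell in aged against young vehicle. With the length offset, 3 rose and 4 fell with GB. Tgfbr2, the TGF-beta type II receptor, fell with GB (log2 fold change -1.43, SE 0.09, edgeR adjusted p = 8.26e-08), and Bmpr1a, a BMP type I receptor, at -1.01 (SE 0.10, edgeR adjusted p = 3.13e-06). Acvr1b, the main type I receptor of activins, had -0.91 (SE 0.29, edgeR adjusted p = 0.0269), a call that was lost when any 1 of the 3 GB libraries was left out, without the filter on low counts and with the length offset. In aged against young vehicle the BMP co-receptor genes Hjv and Rgma fell, at log2 values of -0.72 (SE 0.07, edgeR adjusted p = 0.000107) and -1.22 (SE 0.16, edgeR adjusted p = 0.000738). Hjv, abundant in muscle, averaged 584 ± 6.14 CPM with GB, 425 ± 24.1 CPM in aged vehicle and 701 ± 35.2 CPM in young vehicle libraries (SD, n = 3 each). Amhr2, the receptor of anti-Müllerian hormone, rose in aged against young vehicle by 1.11 on the log2 scale (SE 0.17, edgeR adjusted p = 0.00176).

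Of 18 other Smads and Smad regulators tested, 3 rose and 12 fell with GB against aged vehicle, 5 rose and 10 fell with the length offset, and 1 rose and 14 fell with library totals. The 3 that rose, named after their values were seen, were Pmepa1 (log2 fold change 0.62, adjusted p = 0.00568), Tgif1 (0.89, adjusted p = 0.00970) and Fkbp1a (1.16, adjusted p = 1e-07). Fkbp1a, which encodes a protein that binds type I receptors and keeps them inactive, averaged 196 ± 13.5 CPM with GB and 88.2 ± 0.771 CPM in aged vehicle libraries (SD, n = 3 each). Smad5, a BMP transducer, fell with GB to 14.9 ± 2.59 CPM, against 38.6 ± 0.703 CPM in aged vehicle libraries (SD, n = 3 each; log2 fold change -1.38, edgeR adjusted p = 9.31e-07). The inhibitory Smads fell as well, Smad6 at -1.79 (SE 0.18, edgeR adjusted p = 4.05e-06) and Smad7 at -0.74 (SE 0.19, edgeR adjusted p = 0.00596). Zfyve9, which encodes the SARA anchor of Smad2 and Smad3, fell (log2 fold change -1.16, SE 0.13, edgeR adjusted p = 7.56e-06). In aged against young vehicle 0 rose and 3 fell (Pmepa1, Ski and Fkbp1a), and each of these calls was lost in some of the alternatives.

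Of 13 BMP and Smad target genes tested, 2 (Id3 and Ccn1) rose and 0 fell with GB against aged vehicle, 0 rose and 3 fell with library totals, and 0 rose and 1 fell with the length offset. In aged against young vehicle 3 rose and 0 fell, Cdkn1a, Hey1 and Ccn1. Ccn1, a matricellular protein gene, rose by 0.80 on the log2 scale (SE 0.13, edgeR adjusted p = 0.00256) in all 20 alternatives. Cdkn1a, the cell cycle inhibitor p21, rose by 1.70 on the log2 scale (SE 0.32, edgeR adjusted p = 0.0135), and its call was lost without young vehicle replicate 3. Id1, a direct BMP target, averaged 35.3 ± 3.96 CPM with GB, 21.4 ± 8.28 CPM in aged vehicle and 10.5 ± 3.90 CPM in young vehicle libraries (SD, n = 3 each). It was called in neither comparison of the series design (edgeR adjusted p = 0.0962 and 0.0978). Against young vehicle, Id1 rose with GB (log2 fold change 1.74, SE 0.34, edgeR adjusted p = 0.00203). Of the 13 target genes, 6 rose and 0 fell there, where 24.7% of all genes were called higher and 29.0% lower. Id1 is short, at 1160 bases, and this value was not recomputed with the length offset or library totals.

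Of 14 muscle growth outputs tested, 1 rose and 5 fell with GB against aged vehicle, and 2 rose and 1 fell in aged against young vehicle. Foxo1 and Foxo3 encode transcription factors that switch on genes of protein breakdown. They rose in aged against young vehicle, Foxo1 by 1.87 on the log2 scale (SE 0.26, edgeR adjusted p = 0.00268) and Foxo3 by 0.77 on the log2 scale (SE 0.11, edgeR adjusted p = 0.00141). Foxo3 fell with GB against aged vehicle (log2 fold change -0.94, SE 0.11, edgeR adjusted p = 1.91e-05). Foxo1 averaged 53.1 ± 11.0 CPM with GB, 65.0 ± 25.7 CPM in aged vehicle and 17.8 ± 1.81 CPM in young vehicle libraries (SD, n = 3 each). Foxo1 was higher with GB than in young vehicle (log2 fold change 1.58, SE 0.26, edgeR adjusted p = 0.000659). Of the ubiquitin ligase genes of wasting muscle, Fbxo32 (atrogin-1) and Trim63 (MuRF1) were called in neither comparison of the series design. Their log2 values for GB against aged vehicle were 0.48 (SE 0.55) and 0.75 (SE 0.43). Each was called higher there under 2 of the 20 alternatives, and Fbxo32 lower in aged against young vehicle under 1. Against young vehicle, Trim63 rose with GB (log2 fold change 1.38, SE 0.44, edgeR adjusted p = 0.0327). Fbxo30, which encodes a ligase that BMP signalling holds down in mouse muscle, fell with GB to 9.70 ± 0.894 CPM, against 17.5 ± 2.504 CPM in aged vehicle libraries (SD, n = 3 each; log2 fold change -0.85, edgeR adjusted p = 0.000213), in all 20 alternatives.

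**Figure D5:**
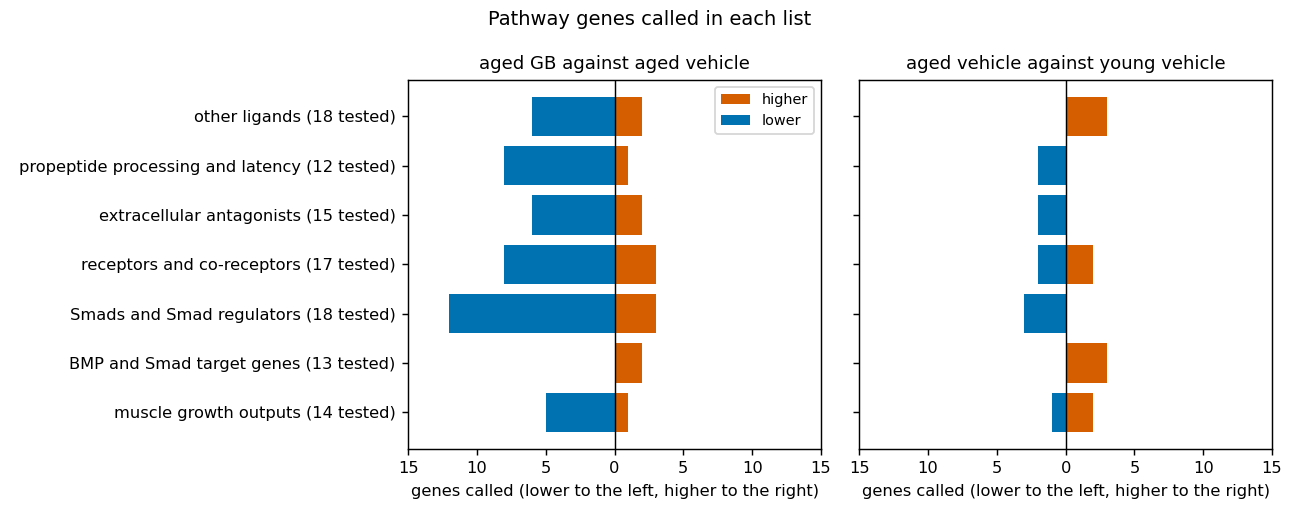
Number of genes called in each of 7 pathway lists (lower to the left, higher to the right, adjusted p under 0.05) for aged GB against aged vehicle and aged vehicle against young vehicle, with the number tested beside each list. Smads and Smad regulators hold 12 lower and 3 higher of 18 with GB, and BMP and Smad target genes hold 0 lower in both comparisons with TMM scaling (3 lower with GB with library totals).

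For the 5 genes whose group means spanned at least 1 on the log2 scale, the genes with the most similar profile over the 9 libraries were taken from 11063 candidates by the root mean square difference of centred log2 CPM. For Smad3 the nearest was Nr3c1, which encodes the glucocorticoid receptor, at 0.12. For Fstl3 it was Itgb4 at 0.17, for Bmp4 Ccnl1 at 0.17 and for Acvr2b Slc16a6 at 0.39. The nearest profile to Bmp5 was that of Agbl1 at 0.86, followed by Gpc6 at 0.97. The measure grows with the span of the gene's own group means, which was 6.55 for Bmp5 and 1.26 to 3.15 for the others, so distances are not comparable between these genes. These are descriptions over 9 libraries that share the differences in depth and gene length given above.

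Annotation overlaps were looked up in GENCODE M21, since the annotation of the counts is not given in the sources used here. Mstn, Gdf11 and Smad3 overlapped no other gene. The antisense gene Gm26903 at Bmp5 had 4 counts over the GB libraries, 7 over the aged vehicle and 5 over the young vehicle libraries, beside 11, 1924 and 417 for Bmp5. Gm15222 at Bmp4 had 49 counts over the GB libraries, 143 over the aged vehicle and 85 over the young vehicle libraries, beside 1390, 1355 and 978 for Bmp4. Fst, Fstl3 and Inhba overlapped genes with at most 24 counts in a group.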

How the data were processed

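Gene expression was measured in 9 gastrocnemius libraries. The authors deposited 1 table of raw counts per gene, whole numbers with no normalization, with a gene length column. Per the labels' protocols, a KAPA mRNA kit was used on TRIzol-extracted total RNA. FastQC, HISAT2, SAMtools and DESeq2 (no versions) and the builds GRCm39 and mm10 appear in the submitters' processing notes. Read counter, annotation and strand use: not given in the sources used here, so genes that share reads with close copies are uncertain.

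The test was edgeR 4.0.16 under R 4.3.3. Its filterByExpr step (minimum count 10, minimum total 15) kept 17534 of 56791 genes, TMM factors scaled the libraries, and a single quasi-likelihood model (robust=TRUE) with 1 mean for each group took in all 9 libraries. P-values are two-sided, with Benjamini-Hochberg adjustment across all genes tested. The standard error is the log2 fold change divided by the root of its F statistic. CPM per kb uses the deposited gene length. The counts of any 2 replicates differed beyond sampling noise, so none was merged.

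The 9 genes, the pathway and marker lists, the tests and the naming rule were chosen with earlier results of these data known. The rule names the 9 genes, in each list up to 4 called genes with the largest fold change and 1 CPM or more in the higher group, plus Acvr1b, Acvr2a, Smad2, Smad7, Inhbb, Id1, Fbxo32, Trim63 and Fbxo30. Of the genes it takes, those that add most are given, and some are not reported here. Nearest profiles used log2 CPM (prior count 2) of genes with at least 2 CPM. The procedure was tested on simulated counts. Alternatives were RLE, upper-quartile and library-total scaling, a length offset (lowess, span 0.3), no filter, a filter of 1 CPM, DESeq2 1.42.0, limma-voom (limma 3.58.1), robust=FALSE, the compared libraries only, the replicate number as a block and leaving out each library. Intervals cover the spread between libraries, and limits from a count of 0 cover counting error only.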

Additional observations from a re-analysis of the deposited data

How the results depend on the processing

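Results were recomputed under 20 alternatives (19 for Fstl3, which gave no value with the filter of 1 CPM). Single pathway genes beyond the 9 were recomputed only in the comparisons of the series design, but Pmepa1, Tgif1 and Fkbp1a were not recomputed singly for GB against aged vehicle. Relative to aged vehicle, the falls of Bmp5, Acvr2b and Smad3 with GB kept their call under all of them, as did the fall of Gdf11 and the rise of Bmp5 in aged against young vehicle. Genes called in aged against young vehicle numbered 1508, beside 2280 with DESeq2 and 749 (without young vehicle replicate 3) to 2010 (without GB replicate 1) when single libraries were left out. Of the 9 genes, 2 were called there, and 4 with DESeq2, 4 with limma-voom and 4 in the fit of the 6 libraries compared. The replicate numbers did not pair the samples (same-numbered deviations correlated between -0.028 and 0.0566), and the fit with the replicate block called 1312, 8958 and 9025 genes for aged against young vehicle, GB against aged vehicle and GB against young vehicle, with 2, 6 and 5 of the 9 genes as without it. The causes of the changes below were not tested.

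No value that changed its sign was called in the fit reported, other than that of Ccn1. With library totals the log2 values for GB against aged vehicle were -0.031 for Ccn1 and -0.089 for Fbxo32, and for GB against young vehicle -0.36 for Mstn. With the length offset they were -0.034 for Id1 (GB against aged vehicle), and, for GB against young vehicle, -0.00078 for Mstn, 0.020 for Gdf11 and 0.20 for Inhba. Gdf11 in the same comparison had 0.0050 with upper-quartile factors and 0.0024 with a filter of 1 CPM, and Smad2 had -0.017 with upper-quartile factors in aged against young vehicle. Leaving out single libraries moved aged against young vehicle between -0.22 and 0.46 for Inhba, -0.012 and 0.079 for Smad2, and -0.14 and 0.84 for Inhbb. It moved GB against aged vehicle between -0.87 and 0.069 for Inhba and -0.72 and 0.26 for Inhbb. It moved GB against young vehicle between -0.048 and 0.33 for Mstn, -0.12 and 0.061 for Gdf11, and -0.66 and 0.27 for Inhba. Depth limits Bmp5 with GB (11 counts) and Fstl3 with GB (30 counts).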
